A study of Homo sapiens with 9 samples.

Results

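The genes described here are 10 subunits of the oligosaccharyltransferase (OST), the enzyme that attaches N-glycans to proteins in the endoplasmic reticulum (ER): MAGT1, TUSC3, STT3A, STT3B, RPN1, RPN2, DDOST, DAD1, OSTC and KRTCAP2. They are 10 of 59293 genes and hold 81 of the 226030 transcripts quantified. The set was drawn up because reads of MAGT1 were nearly absent from the control libraries, so the MAGT1 level against control is given as a description with no test. Messenger RNA was sequenced from 9 libraries of MCF10A-YAP cells. The parent line, MCF10A, is a non-tumorigenic human mammary epithelial line, and its MCF10A-YAP derivative carries an always-active YAP, the transcription coactivator that the Hippo pathway holds in check. All groups carry this YAP transgene. The control group received a non-targeting single guide RNA (sgRNA), and the TRAM2-KO1 and TRAM2-KO2 groups each received a different sgRNA against TRAM2, a membrane protein of the ER found beside the protein-conducting channel (translocon) that takes in newly made chains. Each group has 3 libraries with the letters A, B and C, from cells taken after antibiotic selection at 70-80% confluency. The labels name no clones. The series' design text lists different conditions (an empty vector, and vectors that raise TRAM2 or YAP), and the sample labels decided the groups used here.

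N-glycosylation starts on the membrane of the ER, where a branched sugar is built on the lipid dolichol and then handed as 1 block to asparagines of the growing protein. Mammalian cells have OST complexes of a pair of kinds, each around a different catalytic subunit. Complexes with STT3A sit at the translocon and act while the chain is still being made, and complexes with STT3B can act on sites that were skipped. MAGT1 and TUSC3 are paralogous oxidoreductases that take the same place in STT3B complexes, and MAGT1 has also been described as a magnesium transporter. KRTCAP2 and OSTC belong to the STT3A complex, and RPN1, RPN2, DDOST, DAD1, OST4 and TMEM258 are shared by both.

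TRAM2 stood at 481, 464 and 475 counts-per-million (CPM) in the control libraries A, B and C. It stood at 219, 210 and 203 CPM with the first guide and at 216, 212 and 210 CPM with the second. TRAM2 was lower in all 6 edited libraries, and it fell by 55.5% (TRAM2-KO1) and fell by 55.1% (TRAM2-KO2; adjusted p = 4.93e-08 and 4.7e-08, edgeR quasi-likelihood test over all genes). In bulk samples, fewer cells with a transcript and less transcript per cell cannot be told apart. The libraries held 21.7 to 27.6 M estimated reads. Per library, the correlation across genes between a gene's deviation from its mean and its GC content (Spearman's rho, genes not being independent replicates) was -0.53 in TRAM2-KO1 B and -0.36 in TRAM2-KO1 C, against -0.09 to 0.39 in the other 7 libraries. Of 15 mammary epithelial markers, 14 reached 1 CPM. Their summed level was 10717 to 10861 CPM in control, 9017 to 9353 CPM in TRAM2-KO1 and 10524 to 10768 CPM in TRAM2-KO2, with TP63 under 0.5 CPM in every library. Of the markers of other cells, 2 of 7 fibroblast, 1 of 5 immune and 1 of 4 endothelial genes reached 1 CPM, and PDGFRA, COL1A2, COL3A1, PTPRC, CD3E, PECAM1, VWF and CDH5 were under 0.5 CPM in every library. The fibroblast genes summed to 140 to 145 CPM in control, 118 to 136 CPM in TRAM2-KO1 and 122 to 125 CPM in TRAM2-KO2. The immune genes, of which LCP1 alone reached 1 CPM, summed to 150.1 to 157 CPM, 157 to 169 CPM and 161 to 171 CPM in the same order, and the endothelial genes to 2.01 to 2.38 CPM over all libraries. The part of these markers and of the GC trend in the differences below was not tested, except where a value with the trend removed is given.

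MAGT1 lies on the minus strand of chromosome X (X:77081244-77154768, GRCh37). In control A, B and C its level was 0.0408, 0.041 and 0.123 CPM. In TRAM2-KO1 it was 25.5, 30.3 and 22.8 CPM, and in TRAM2-KO2 it was 6.46, 34.2 and 35.6 CPM. Every edited library was above every control library, and TRAM2-KO2 A was far below the 5 other edited libraries. Between the guides, a comparison that the choice of genes did not use, MAGT1 did not differ beyond the spread of its libraries (TRAM2-KO2 against TRAM2-KO1: log2 -0.04, 95% interval -0.998 to 0.91, adjusted p = 0.97). Without TRAM2-KO2 A the same difference was 0.42 on the log2 scale (adjusted p = 0.144).

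Nearly all these reads were assigned to a single transcript, MAGT1-201, which encodes the full protein and is 4047 nt long. It had 0 reads in each control library. It had 686, 655 and 585 reads with TRAM2-KO1 and 173, 865 and 975 reads with TRAM2-KO2. With the 3 libraries of each group pooled and a floor of 3 reads over the whole control group, MAGT1-201 was at least 644-fold higher in TRAM2-KO1 and at least 634-fold higher in TRAM2-KO2. These bounds cover counting error alone, not how reads were split between transcripts, and describe the control level that chose the set. They do not hold for each library, since TRAM2-KO2 A had 6.38 RPM (reads-per-million of the library) where its pooled group had 25.2. The few MAGT1 reads of control belonged to the short transcript MAGT1-202, with 1.25, 1.23 and 2.59 reads, and MAGT1-203 and MAGT1-204 had 0 reads in all 9 libraries. Coding exon 8 of MAGT1-201 (chrX:77096743-77096817, minus strand) is printed as an example of the sequence that MAGT1-201 holds and MAGT1-202 lacks, with no part marked.
MAGT1-201 exon 8: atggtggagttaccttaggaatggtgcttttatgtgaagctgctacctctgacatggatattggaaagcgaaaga

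A transcript that GENCODE release 44 pairs with no gene ran the other way. The files hold 5694 such transcripts, 177 of them with a mean of at least 20 RPM (reads-per-million of the library), and ENST00000610432 (4019 nt in the files) was picked after its values were seen because it had the lowest Pearson correlation with MAGT1 among the 177 (-0.97 over the 9 libraries, the next lowest being -0.77). Its level was 100.3, 94.4 and 97.0 RPM in control A, B and C. In TRAM2-KO1 it was 81.9, 81.4 and 83.7, and in TRAM2-KO2 it was 95.4, 72.7 and 72 RPM. It was highest in the 3 control libraries and in TRAM2-KO2 A, the libraries with least MAGT1. Added together, MAGT1 and ENST00000610432 came to 104, 97.5 and 100.05 CPM in control, 109, 112 and 108 CPM in TRAM2-KO1, and 103, 107 and 108 CPM in TRAM2-KO2. The sum was 0.12 higher than control on the log2 scale with TRAM2-KO1 (SE 0.035) and 0.08 higher with TRAM2-KO2 (SE 0.035), and no p is given because the transcript was chosen from these values. Its sequence and its gene were not used here, and whether the program that assigned the reads placed reads of 1 RNA on either of the pair was not tested.

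**Figure D1:**
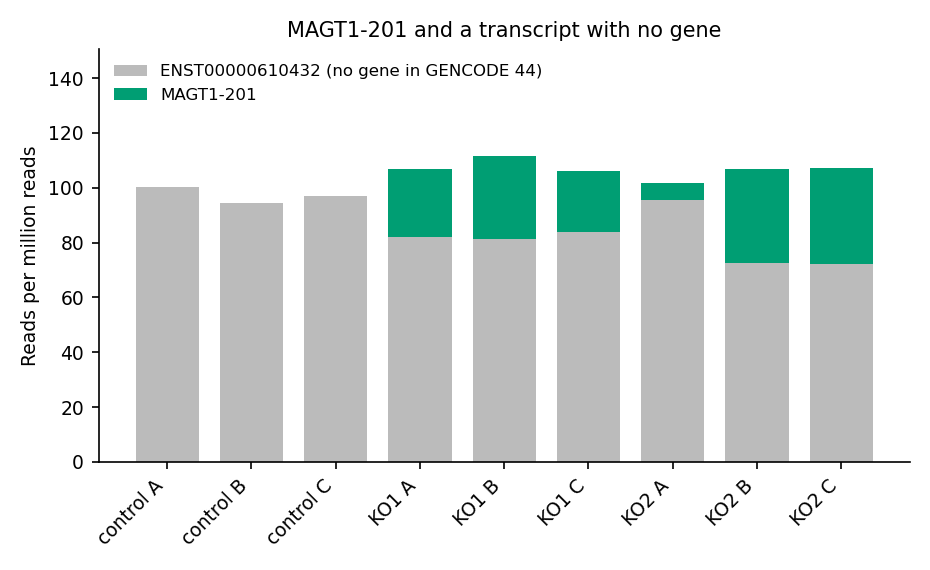
Stacked bars of reads-per-million (vertical axis, RPM) assigned to MAGT1-201 (green) and to ENST00000610432 (grey), a transcript with no gene in GENCODE release 44, in each of the 9 libraries (horizontal axis; KO1 and KO2 stand for TRAM2-KO1 and TRAM2-KO2). MAGT1-201 has 0 reads in the 3 control libraries and its smallest share of the edited ones in TRAM2-KO2 A, the grey part is lowest in TRAM2-KO2 B and C (72.7 and 72 RPM), and the height of the whole bar lies between 94.4 and 112 RPM.

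TUSC3, the paralog that can take the place of MAGT1, lies on the plus strand of chromosome 8 (8:15274724-15624158). It had 159, 162 and 159 CPM in control. It had 186, 201 and 185 CPM in TRAM2-KO1, and 182, 186 and 185 CPM in TRAM2-KO2. All 6 edited libraries were above all 3 control libraries. TUSC3 rose by 0.25 on the log2 scale with TRAM2-KO1 (SE 0.035, 19.1% higher, adjusted p = 0.00262) and by 0.21 with TRAM2-KO2 (SE 0.035, 15.3% higher, adjusted p = 0.00747). The guides did not differ in it beyond their spread (log2 -0.05, 95% interval -0.12 to 0.03, adjusted p = 0.485). After removal of each library's GC trend, the differences from control were 0.19 and 0.20. No read window of 31 bases was shared between transcripts of MAGT1 and TUSC3, so reads of 1 could not match the other exactly.

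In transcripts-per-million (TPM), a scale that accounts for transcript length, the reads assigned to MAGT1 were a minor part of the pair in every library. They made 0.0498%, 0.0467% and 0.0995% of the summed MAGT1 and TUSC3 TPM in control A, B and C, 3.8%, 4.24% and 3.39% with TRAM2-KO1, and 0.955%, 5.06% and 5.22% with TRAM2-KO2. With ENST00000610432 added to MAGT1 the share was 14.7% to 16.1% in control and 13.4% to 14.4% in the edited libraries, so this share depends on whether that transcript is counted. TUSC3 reads were spread over several transcripts, of which TUSC3-203 held 28.5% in control, 29.9% in TRAM2-KO1 and 27.4% in TRAM2-KO2. TUSC3-201, TUSC3-204, TUSC3-206 and TUSC3-213 each held between 12.6% and 19.4% in every group, the last of them a transcript annotated as a target of nonsense-mediated decay. TUSC3-201 had 27.8 to 30.4 CPM in control, 33.2 to 35.5 CPM in TRAM2-KO1 and 34.7 to 36.9 CPM in TRAM2-KO2. It lay above control in all 6 edited libraries but did not pass the test over 56469 transcripts (log2 0.26 and 0.31, adjusted p = 0.262 and 0.157).

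STT3A, the catalytic subunit of the translocon-bound complex, is on chromosome 11 (11:125461607-125495110). Its levels were 235, 230 and 231 CPM in control, 217, 225 and 231 CPM in TRAM2-KO1, and 208, 207 and 213 CPM in TRAM2-KO2. STT3A fell by 9.75% with TRAM2-KO2 (log2 -0.15, SE 0.031, adjusted p = 0.0226), with no overlap between the groups, whereas the TRAM2-KO1 libraries overlapped control (log2 -0.05, SE 0.031, adjusted p = 0.406). The difference between the guides was -0.10 (95% interval -0.17 to -0.03, adjusted p = 0.128). STT3A-211 held 68.0% of the STT3A reads in control, 72.9% in TRAM2-KO1 and 76.9% in TRAM2-KO2, each pooled over the group. By library the share was 64.8%, 77.8% and 61.5% in control A, B and C and 75.8% to 78.1% in TRAM2-KO2, so these groups overlapped. The CPM of STT3A-211 overlapped too (log2 0.05 and 0.04 against control, SE 0.078 for each). Another transcript, STT3A-214, had 642, 0 and 794 reads in the control libraries, 0, 0 and 345 with TRAM2-KO1 and 0 in all TRAM2-KO2 libraries, so that its presence differed between libraries of 1 group.

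STT3B, the catalytic subunit that MAGT1 and TUSC3 serve, is on chromosome 3 (3:31574130-31679108). It had 264, 267 and 261 CPM in control, 244, 248 and 241 CPM in TRAM2-KO1, and 234, 243 and 244 CPM in TRAM2-KO2. All edited libraries were below all control libraries. STT3B fell by 9.01% with TRAM2-KO2 (log2 -0.14, SE 0.027, adjusted p = 0.0191), and with TRAM2-KO1 its difference of -0.11 (SE 0.027) missed the threshold (adjusted p = 0.0582). STT3B-201 held 95.2% to 95.4% of its reads in each group. STT3A and STT3B share only 3 windows of 31 bases. The ratio of STT3A to STT3B in TPM was 1.10 to 1.28 in control, 1.08 to 1.39 in TRAM2-KO1 and 1.05 to 1.17 in TRAM2-KO2, ranges that overlap. STT3B-207, a 436 nt transcript annotated as retaining an intron, gave 37.6 to 48.4 TPM of STT3B in control, so this ratio depends on such short transcripts.

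RPN1 and RPN2 (ribophorins I and II) are large membrane subunits shared by both complexes. RPN1 (3:128338812-128399918) had 300.1, 296 and 292 CPM in control, 275, 284 and 286 CPM in TRAM2-KO1, and 273, 265 and 271 CPM in TRAM2-KO2. Both edited groups were below control without overlap. RPN1 fell by 8.79% with TRAM2-KO2 (log2 -0.13, SE 0.028, adjusted p = 0.024), and its difference with TRAM2-KO1 was -0.07 (SE 0.028, adjusted p = 0.201). RPN2 (20:35806813-35870022) had 461, 455 and 461 CPM in control, 430.2, 432 and 427 CPM in TRAM2-KO1, and 449, 443 and 445 CPM in TRAM2-KO2. Here TRAM2-KO1 was the lower group, with TRAM2-KO2 between it and control and no group overlapping another. None of the RPN2 differences passed the test, with log2 -0.09 (SE 0.023, adjusted p = 0.0621) for TRAM2-KO1, -0.04 (SE 0.023, adjusted p = 0.469) for TRAM2-KO2, and 0.05 between the guides (adjusted p = 0.239).

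RPN2 is made as a pair of main transcripts. RPN2-201 held 66.0% of the RPN2 reads in control, 68.3% in TRAM2-KO1 and 64.8% in TRAM2-KO2, and RPN2-202 held 29.99%, 27.9% and 32.0%. RPN2-202 holds a segment of 169 nt (chr20:35807564-35807732) that RPN2-201 lacks and that is not printed. Coding segments that also tell them apart are exon 3 of RPN2-201 (chr20:35826800-35826895, 96 nt, absent from RPN2-202) and exon 16 of RPN2-202 (chr20:35866805-35866852, 48 nt, absent from RPN2-201). Both are on the plus strand and printed with no part marked.
RPN2-201 exon 3: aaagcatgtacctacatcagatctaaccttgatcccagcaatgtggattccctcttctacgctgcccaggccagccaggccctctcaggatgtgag
RPN2-202 exon 16: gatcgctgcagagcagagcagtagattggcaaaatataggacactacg
The level of RPN2-202 was 135, 139 and 133 CPM in control, 117, 112 and 126 CPM in TRAM2-KO1, and 143, 153 and 131 CPM in TRAM2-KO2. TRAM2-KO1 was below both other groups without overlap. The transcript did not pass the test, with log2 -0.20 against control (SE 0.065, adjusted p = 0.598) and 0.27 for TRAM2-KO2 against TRAM2-KO1 (SE 0.065, adjusted p = 0.473).

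DDOST, the shared subunit also known as OST48, is on chromosome 1 (1:20978260-20988037) and was the most variable member between libraries of 1 group apart from MAGT1. It had 63.2, 60.5 and 43.4 CPM in control, 64.0, 173 and 87.8 CPM in TRAM2-KO1, and 63.5, 54.5 and 59.4 CPM in TRAM2-KO2. TRAM2-KO1 B and C, the libraries with the strongest negative GC trend, were high, and TRAM2-KO1 A was above control A by less than 1 CPM. The longest DDOST transcript is 54.1% GC, and the part of that trend in the DDOST level was not tested. The log2 difference of TRAM2-KO1 from control was 0.95 (SE 0.3, adjusted p = 0.134). It was 0.44 without TRAM2-KO1 B (adjusted p = 0.288) and 1.22 without TRAM2-KO1 A (adjusted p = 0.0108). For TRAM2-KO2 it was 0.09 (SE 0.3, adjusted p = 0.956).

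The excess lay in 1 transcript. DDOST-205 had 0 reads in 7 libraries, 2593 reads in TRAM2-KO1 B and 861 reads in TRAM2-KO1 C, which were 69.4% and 38.2% of the DDOST reads there. DDOST-201 had 1518, 1437 and 1048 reads in control, 1720, 1103 and 1356 with TRAM2-KO1, and 1630, 1353 and 1594 with TRAM2-KO2, and did not separate the groups (log2 0.03 and 0.09). Here too a transcript without a gene ran the other way. ENST00000375048 (2079 nt), chosen as before by the lowest correlation with DDOST (-0.96, the next lowest being -0.92), had 164, 172 and 184 RPM in control, 137, 27.7 and 108 with TRAM2-KO1, and 145, 153 and 137 with TRAM2-KO2. It was lowest in TRAM2-KO1 B, the library with most DDOST. Added together the pair had 232, 238 and 233 CPM in control, 203, 200.3 and 197 CPM in TRAM2-KO1, and 209.9, 208 and 197 CPM in TRAM2-KO2. On the sum the sign turned, with log2 -0.23 for TRAM2-KO1 (SE 0.031) and -0.19 for TRAM2-KO2 (SE 0.031), given with no p since the transcript was chosen from these values. The direction of DDOST thus depends on whether this transcript is counted, and whether its reads stem from DDOST was not tested. DDOST also shares 394 windows of 31 bases, 14.5% of its own, with PINK1-AS, so a part of its reads could be split between them.

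**Figure D2:**
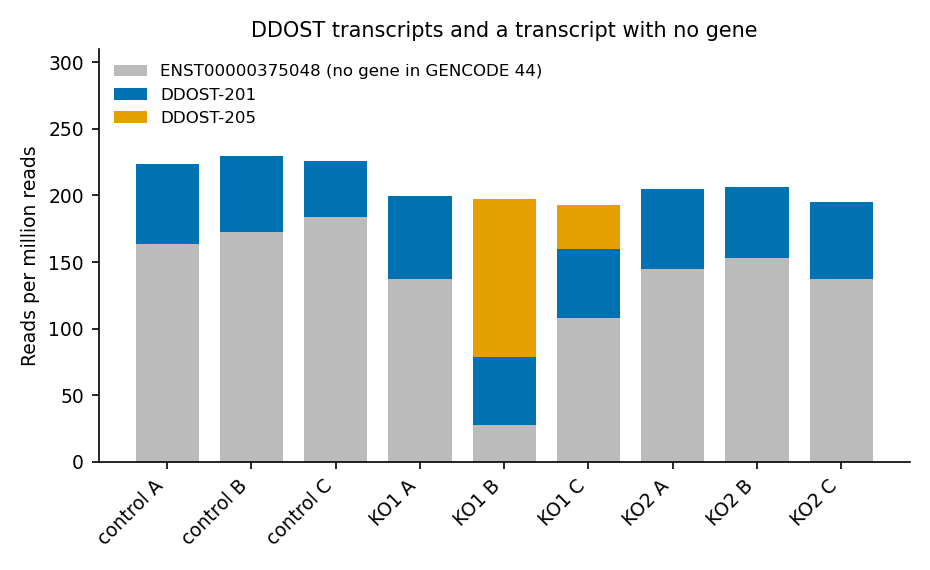
Stacked bars of reads-per-million (vertical axis, RPM) assigned to DDOST-201 (blue), DDOST-205 (orange) and ENST00000375048 (grey), a transcript with no gene in GENCODE release 44, in each of the 9 libraries (horizontal axis; KO1 and KO2 stand for TRAM2-KO1 and TRAM2-KO2). DDOST-205 shows in TRAM2-KO1 B and C alone, the grey part is smallest in TRAM2-KO1 B at 27.7 RPM, and the whole bars of the 3 control libraries are taller than those of the 6 edited ones.

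The small subunits followed no common course. DAD1, named as a defender against cell death (14:23033807-23058130), had 85.7, 85.3 and 82.1 CPM in control, 89.7, 98.2 and 90.5 CPM in TRAM2-KO1, and 86.5, 85.0 and 80.7 CPM in TRAM2-KO2. Only the TRAM2-KO1 libraries lay apart from control, and the difference of 0.14 did not pass the test (SE 0.043, adjusted p = 0.141). OSTC (4:109571741-109588976) had 89.3 to 94.1 CPM in control, 93.3 to 101 CPM in TRAM2-KO1 and 88.0 to 89.8 CPM in TRAM2-KO2, with differences from control of 0.07 and -0.05 (adjusted p = 0.353 and 0.603). KRTCAP2 (1:155141884-155145951) had 39.3 to 40.3 CPM in control, 42.0 to 44.1 CPM in TRAM2-KO1 and 36.8 to 44.1 CPM in TRAM2-KO2, with differences of 0.12 and -0.02 (adjusted p = 0.355 and 0.954). KRTCAP2 shares 676 windows of 31 bases (17%) with the overlapping gene model ENSG00000273088 and OSTC shares 132 (7.9%) with the pseudogene OSTCP1, so these 2 levels are less certain. The remaining shared subunits, which were not in the set, did not pass the test either. OST4 had a mean of 78.5 CPM in control, 76.1 in TRAM2-KO1 and 76.3 in TRAM2-KO2, and TMEM258 had 22.9, 23.8 and 23.2 CPM. Their differences from control lay between -0.04 and 0.05 on the log2 scale, and neither had an unadjusted p under 0.05 (edgeR; DESeq2 called 0 of them).

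**Figure D3:**
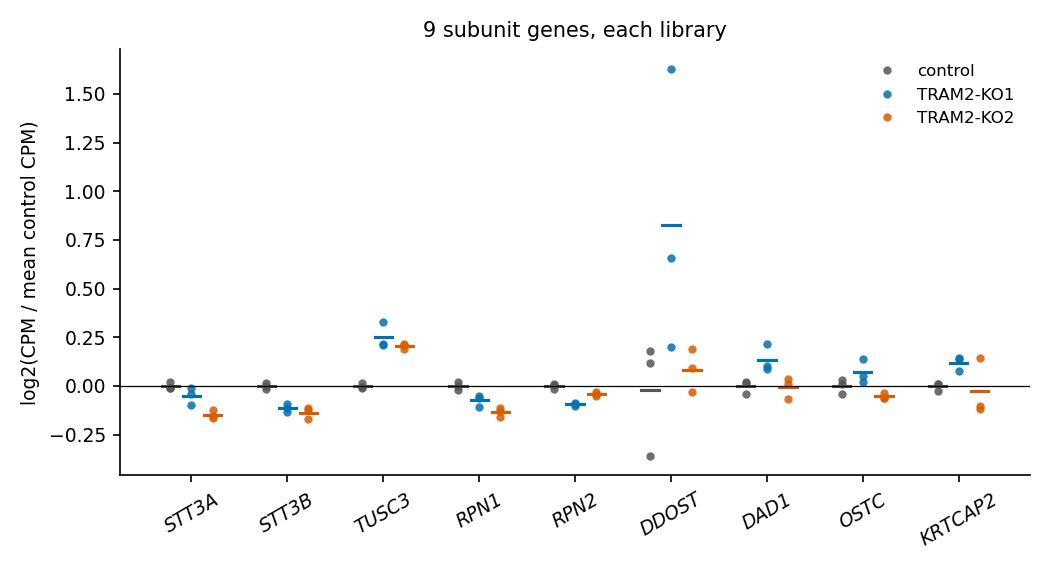
Level of the 9 OST genes other than MAGT1 in each library, as log2 of its CPM over the mean control CPM of that gene (vertical axis), with 1 point per library and a short line at the mean of each group's points. TUSC3 is higher in all 6 edited libraries (182 to 201 CPM against 159 to 162 CPM), STT3B and RPN1 are lower in all 6, and DDOST is the gene whose libraries spread widest within a group.

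Counted over the 9 members compared with control, MAGT1 being left out because its control level chose the set, 1 passed the test with TRAM2-KO1 (TUSC3, higher), where 2.91% of all 15139 genes tested passed (0.753% higher, 2.15% lower). With TRAM2-KO2, 4 of 9 passed (TUSC3 higher, STT3A, STT3B and RPN1 lower), where 4.22% of all genes did (1.73% higher, 2.49% lower). All these differences were under 0.5 on the log2 scale. The groups of TRAM2-KO1 and control did not overlap for 7 of 9 members, where they did not for 23.0% of all genes (11.9% above, 11.1% below). For TRAM2-KO2 this held for 5 of 9 members, against 23.6% of all genes (11.3% above, 12.3% below). Those 7 were TUSC3, DDOST, DAD1 and KRTCAP2 above control and STT3B, RPN1 and RPN2 below it, and those 5 were TUSC3 above and STT3A, STT3B, RPN1 and RPN2 below. With ENST00000375048 added to DDOST, DDOST lay below control with both guides, and the counts became 3 above and 4 below with TRAM2-KO1 and 1 above and 5 below with TRAM2-KO2. The median log2 difference of the 9 members was 0.07 with TRAM2-KO1 and -0.04 with TRAM2-KO2 (-0.05 with each guide once that transcript is added), beside medians of 0.0051 and -0.0032 over all genes tested. Both comparisons share the 3 control libraries.

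The test of the guides against each other called 0 of 10 members with edgeR and 0 with DESeq2, while edgeR called 2.27% of all genes (1.41% higher, 0.865% lower). An unadjusted p under 0.05 was found for 5 of 10 members, and the share of all genes at that level was not counted. The guides did not overlap for 6 of 10 members, RPN2 being above with TRAM2-KO2 and STT3A, RPN1, DDOST, DAD1 and OSTC below, where they did not for 21.4% of all genes (9.51% above, 11.9% below). The largest differences were those of DDOST (log2 -0.86, 95% interval -1.51 to -0.21, adjusted p = 0.156), DAD1 (-0.14, -0.24 to -0.05, adjusted p = 0.122) and KRTCAP2 (-0.14, -0.28 to 0.00, adjusted p = 0.264), all lower with TRAM2-KO2. OSTC was lower by -0.12 (-0.21 to -0.04, adjusted p = 0.122). With ENST00000375048 added to DDOST, its difference between the guides was 0.03 (95% interval -0.04 to 0.10) and the guides overlapped. All other counts and values of DDOST in this paragraph leave that transcript out. Without TRAM2-KO1 A, edgeR called 4 members between the guides (STT3A, DDOST, DAD1 and OSTC, all lower with TRAM2-KO2). In TRAM2-KO1 against control it then called 5 members (TUSC3, DDOST and DAD1 higher, STT3B and RPN2 lower). TRAM2-KO1 A was the library of its group closest to control in DDOST. Its rho with GC content was 0.18, against -0.53 and -0.36 in TRAM2-KO1 B and C. The share of all genes called in this fit was not counted. For TRAM2-KO2 most calls of the lower members were lost when 1 library was left out, while their log2 differences stayed between -0.16 and -0.14 for STT3A, -0.15 and -0.12 for STT3B, and -0.14 and -0.12 for RPN1. Without control A, control B, control C, TRAM2-KO2 A or TRAM2-KO2 B only TUSC3 was called, and without TRAM2-KO2 C only TUSC3 and STT3B.

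**Figure D4:**
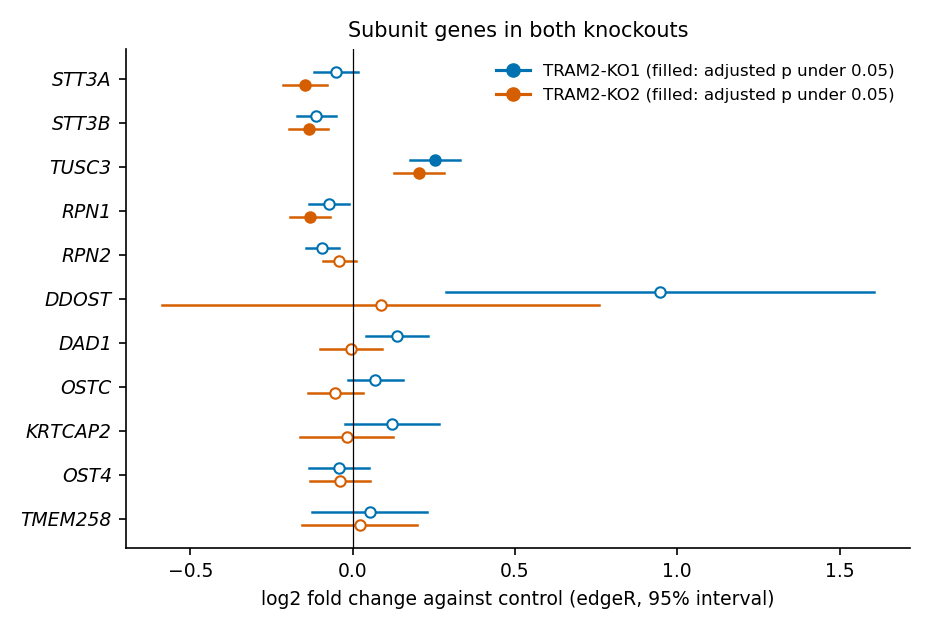
Log2 difference from control (horizontal axis, edgeR) with its 95% interval for the 9 OST genes other than MAGT1 and for OST4 and TMEM258, with TRAM2-KO1 in blue and TRAM2-KO2 in orange and a filled point where the adjusted p was under 0.05. TUSC3 lies above 0 with both guides at 0.25 and 0.21, STT3B lies below 0 with both at -0.11 and -0.14, and the DDOST interval for TRAM2-KO1 runs from 0.29 to 1.61.

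At the level of transcripts, 0 of 41 member transcripts passed in TRAM2-KO1 or in TRAM2-KO2 against control, and 0 of 42 between the guides, with edgeR or with limma on log2 CPM. The share of all transcripts called by edgeR was 0.17%, 0.174% and 0.023% in these comparisons. An unadjusted p under 0.05 was found for 6, 4 and 5 member transcripts, and the share of all transcripts at that level was not counted. Most other members are dominated by 1 transcript. RPN1-201 held 95.8%, 95.8% and 97.0% of the RPN1 reads in control, TRAM2-KO1 and TRAM2-KO2. OSTC-201 held 88.7%, 90.7% and 85.7%, and KRTCAP2-201 held 54.5%, 58.2% and 49.2%. For OSTC-201 and KRTCAP2-201 this share, pooled over the group, was lowest in TRAM2-KO2 and highest in TRAM2-KO1. By library, OSTC-201 held 87.3% to 90.2% in control, 82.6% to 95.1% in TRAM2-KO1 and 84.5% to 86.7% in TRAM2-KO2. KRTCAP2-201 held 48.8% to 61.5%, 51.1% to 66.0% and 46.6% to 52.1% in the same order. The guides thus overlapped in both shares.

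By TPM summed over all transcripts of a gene, the members can be put in an order. In control it ran RPN2 (303 TPM), KRTCAP2 (261), DAD1 (228), RPN1 (197), TUSC3 (164), STT3A (142), OSTC (130), STT3B (119), DDOST (46.4) and MAGT1 (0.108), and only the ranges of STT3A and OSTC overlapped among neighbours. Short transcripts weigh heavily in such sums. KRTCAP2-202, 271 nt long with no defined coding sequence, gave 133, 147 and 166 TPM in control A, B and C. The coding transcript KRTCAP2-201 gave 89.4, 77.8 and 70.6 TPM there, so the place of KRTCAP2 depends on the short transcript. In TRAM2-KO1, KRTCAP2 (282 TPM) and RPN2 (279), TUSC3 (193) and RPN1 (185), OSTC (134) and STT3A (131), and STT3B (111) and DDOST (81.2) overlapped in their ranges. In TRAM2-KO2 the TPM of TUSC3 (193) lay above that of RPN1 (173) without overlap. On summed TPM, TUSC3 therefore stood below RPN1 in control and above it in TRAM2-KO2, with the ranges apart in both. Short transcripts with no defined coding sequence held a part of these sums. RPN1-206 (566 nt) had 37.7 to 46.6 TPM in control and 24.4 to 30.1 in TRAM2-KO2, and TUSC3-206 (727 nt) had 47.3 to 63.6 and 63.0 to 69.1. The coding transcript RPN1-201 had 153 to 154 and 141 to 146 TPM, and the coding TUSC3-203 had 39.2 to 41.3 and 42.5 to 49.0. MAGT1 was last in every group, at 7.65 TPM in TRAM2-KO1 and 7.60 TPM in TRAM2-KO2. With the 2 transcripts without a gene added, MAGT1 was still last, at 29.5 TPM in control, 31.8 in TRAM2-KO1 and 31.5 in TRAM2-KO2. DDOST then moved from place 9 to place 6 in control, at 154 TPM, and stood at 136 and 146 TPM with the guides.

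The steps before and after OST were followed through 61 further genes, OST4 and TMEM258 included, of which 60 could be tested. Of these, 14 were called with TRAM2-KO1 (1 rose, 13 fell) and 12 with TRAM2-KO2 (all fell), where 2.91% and 4.22% of all genes were called. Of the 29 genes that build the dolichol-linked sugar, edgeR called 0 with either guide, with 6 and 2 at an unadjusted p under 0.05, DESeq2 called 0, and the median difference was 0.04 with both. ALG5, which makes dolichol-phosphate glucose, was 0.21 higher with TRAM2-KO1 (30.5 CPM in control, 35.3 CPM in TRAM2-KO1, adjusted p = 0.0512) and 0.08 higher with TRAM2-KO2. It was called with TRAM2-KO1 without TRAM2-KO1 A and under 3 other settings. NUS1, a subunit of the enzyme that makes dolichol, was 0.13 and 0.05 higher (adjusted p = 0.094 and 0.622). DPM1, which makes dolichol-phosphate mannose, differed by 0.11 (TRAM2-KO1) and 0.07 (TRAM2-KO2) and did not pass the threshold.

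Several genes that act on the glycan once OST has attached it fell with both guides. Of the 15 genes of glycan trimming and folding in the ER, 8 fell and 1 rose with TRAM2-KO1 and 7 fell with TRAM2-KO2, where 2.91% and 4.22% of all genes were called, with medians of -0.21 and -0.18. The calls were mostly lost in 2 other fits, with 1 and 0 of the 15 called by limma on TPM and 0 and 2 with transcript length offsets in edgeR. The share of all genes called in these fits was not counted, and the reason for the loss was not tested. CALR (calreticulin), a chaperone that binds trimmed glycans, fell from 942 ± 24.4 CPM (SD, n = 3) to 786 ± 14.8 and 782 ± 17.1 CPM (adjusted p = 0.00075 and 0.00053). UGGT1, which puts a glucose back on misfolded glycoproteins, fell from 196 to 155 and 156 CPM (log2 -0.34 and -0.33, adjusted p = 0.00224 and 0.0022). EDEM3, which marks glycoproteins for degradation, fell by 0.28 and 0.31 on the log2 scale, and GANAB, the catalytic subunit of glucosidase II, fell by 0.21 with each guide. The gene that rose was SELENOF, a partner of UGGT1 (108, 102 and 103 CPM in control, 115, 131 and 124 CPM in TRAM2-KO1, log2 0.24, adjusted p = 0.0204), and it is named because it is the single exception.

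Of the 14 tested genes of N-glycan processing in the Golgi, 5 fell with each guide, where 2.91% and 4.22% of all genes were called. The medians of the list were -0.16 and -0.20. In the other fits, 2 and 0 were called by limma on TPM and 2 and 2 with transcript length offsets, again with no share over all genes counted. MAN2A1, the Golgi mannosidase II, fell from 336 ± 4.4 CPM to 268 ± 4.05 and 261 ± 4.74 CPM (SD, n = 3, adjusted p = 9.49e-05 and 3.12e-05 with edgeR). Its relative MAN2A2 fell by 0.38 and 0.32 on the log2 scale. MGAT5, which starts a branch of complex glycans, fell by 0.24 and 0.21. B4GALT1, a galactosyltransferase, fell from 240 CPM to 184 CPM with TRAM2-KO1 and 206 CPM with TRAM2-KO2, and it was the single gene of these lists called between the guides (log2 0.16, SE 0.028, adjusted p = 0.0159).

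**Figure D5:**
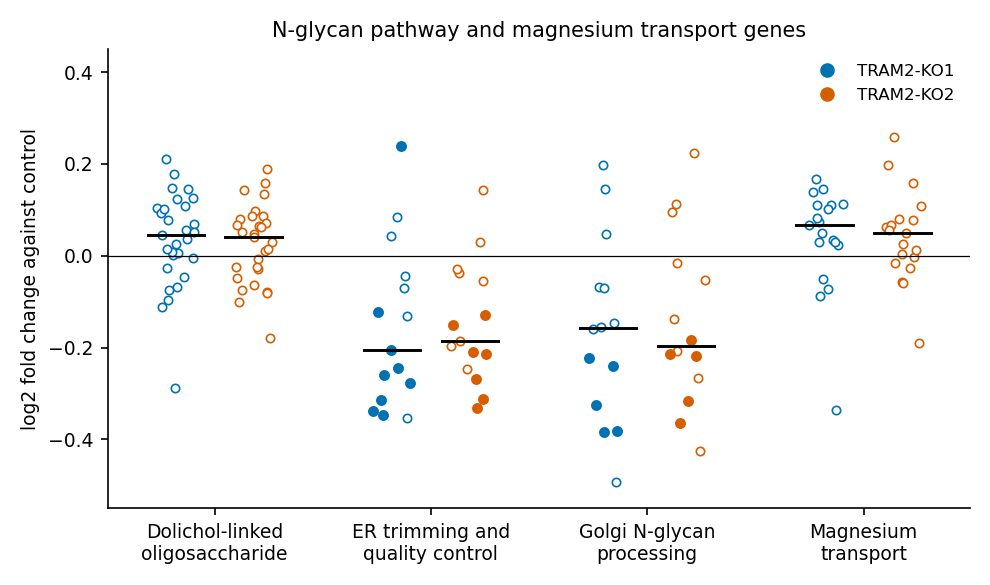
Log2 difference from control (vertical axis) of each tested gene in the lists of the N-glycan pathway and of magnesium transport, with TRAM2-KO1 in blue and TRAM2-KO2 in orange, filled points for an adjusted p under 0.05 and a line at the median of each list. The genes of dolichol and magnesium transport lie around 0 with no filled point, and most genes of glycan trimming in the ER and of the Golgi lie below 0, with medians between -0.16 and -0.21.

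Magnesium transport was followed because of the second role described for MAGT1. Of the 19 genes tested, edgeR called 0 with either guide, with 5 and 3 at an unadjusted p under 0.05, DESeq2 called 0, and the medians were 0.07 and 0.05. NIPAL1 and SLC41A3 were both called higher with TRAM2-KO2 once the GC trend was removed and without TRAM2-KO1 B, and NIPAL1 alone without TRAM2-KO2 A. Without TRAM2-KO1 A, 3 genes were called higher with TRAM2-KO1 (NIPAL2, NIPAL3 and PTP4A1, the last 2 named for this count). The genes with the smallest p were NIPAL2, NIPAL1 and SLC41A3, proteins linked to magnesium transport, and MMGT1. SLC41A3 had 34.4, 37.9 and 37.3 CPM in control, 42.2, 38.2 and 40.7 CPM in TRAM2-KO1, and 41.4, 43.9 and 40.7 CPM in TRAM2-KO2. All edited libraries were above control, but the differences of 0.15 and 0.20 missed the threshold (adjusted p = 0.195 and 0.0782). NIPAL1 differed by 0.14 and 0.26 (adjusted p = 0.316 and 0.0693), NIPAL2 by 0.17 and 0.08 (adjusted p = 0.0795 and 0.472), and MMGT1 by 0.10 and 0.11 (adjusted p = 0.171 and 0.146).

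The neighbours of MAGT1 on chromosome X did not share the large difference of the reads assigned to MAGT1. Of 7 such genes, 5 were tested and edgeR called 0 in either comparison with control, with 0 at an unadjusted p under 0.05. PGK1, which stood at 776 CPM in control A, differed by 0.05 and -0.03, ATP7A by 0.10 and 0.06, COX7B by 0.04 and 0.03, ATRX by 0.01 and -0.04, and TAF9B by -0.0018 and -0.02. With ENST00000610432 added, MAGT1 itself differed by 0.12 and 0.08, close to ATP7A. FGF16 and PGAM4 had too few reads to test. Near TUSC3 on chromosome 8, CNOT7 differed by 0.09 and -0.01 and ZDHHC2 by 0.07 and 0.04, with 0 called and 1 and 0 at an unadjusted p under 0.05, and SGCZ, MSR1, FGF20 and MICU3 were too low to test. DESeq2 called 0 of the neighbours of either gene.

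The genes whose levels ran most like those of MAGT1 and TUSC3 were found by Pearson correlation of log2 CPM over the 9 libraries, among 12310 genes with a mean of 1 CPM or more, as a description with no p. The 9 points share 3 control libraries that stand apart from the edited ones, so a gene that differs between them ranks high. For MAGT1 these were FMNL2 (r = 0.98), PLA2G12A (0.98), SLC7A11 (0.97), C5orf15 (0.96) and SELENOT (0.96). Their own differences from control lay between 0.11 and 0.31 on the log2 scale, and SLC7A11, the cystine transporter, had the largest (0.29 and 0.31). The difference of the reads assigned to MAGT1 was far larger, and with ENST00000610432 added it was 0.12 and 0.08. For TUSC3 they were BUB3 (0.98), AIG1 (0.98), C3orf33 (0.97), SERINC3 (0.97) and PRDX6 (0.97). AIG1 differed from control by 0.23 and 0.18 and C3orf33 by 0.46 and 0.33, and BUB3, at 317 to 344 CPM, by 0.08 and 0.07.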

How the data were processed

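Per the labels, adapters were trimmed by the authors with cutadapt and Salmon then estimated reads per transcript. Tool versions, genome build and transcript set: not given in the sources used here. The labels and the study's methods name different TruSeq kits, so strandedness is uncertain. In the deposited files the authors gave each transcript an estimated count of reads, not normalized, and a TPM value scaled over all transcripts of a library.

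Transcripts were paired with genes and exons through GENCODE release 44 on GRCh37. Of 226030 transcripts, 220336 (97.5%) had a gene, holding 98.4% to 98.5% of reads. The estimated counts were summed per gene and rounded. edgeR 4.0.16 (R 4.3.3) fitted a quasi-likelihood model with 3 groups to all 9 libraries, with TMM factors and filterByExpr (minimum 10 reads), leaving 15139 genes, and likewise 56469 transcripts. P values are two-sided, adjusted by Benjamini-Hochberg over all features tested, and "rose" or "fell" means an adjusted p under 0.05. Counts at an unadjusted p under 0.05 have no share over all features beside them, so they show no excess. Intervals are at 95%. CPM uses the TMM-adjusted library size. The common biological coefficient of variation was 5.86%. Replicates differ as libraries, and how far cultures were kept apart is not stated. Scripts were tested on simulated data.

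The members and gene lists were chosen with earlier results of these data known. Genes named are the members, TRAM2, OST4, TMEM258, up to 4 genes per list with the smallest p, the measured neighbours of MAGT1 and TUSC3, and the 5 genes most like each. SELENOF is named outside this rule. A few items under this rule are not reported here. Alternatives used DESeq2 1.42.0 and limma 3.58.1 (log2 of TPM plus 0.5).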

Additional observations from a re-analysis of the deposited data

How the results depend on the processing

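TUSC3 was called with TRAM2-KO1 under every alternative but limma on TPM, and with TRAM2-KO2 likewise. Members called with TRAM2-KO1 (1 in the fit reported) were 3 with DESeq2, 3 with a mean of at least 5 CPM, 2 without a low count filter, 2 with the GC trend removed, 2 with the replicate block and the GC trend removed, 2 with both transcripts without a gene added, and 0 with limma on TPM, and 1 to 5 when single libraries were left out. With TRAM2-KO2 (4) they were 1 without a filter, 1 with transcript length offsets 0 with limma on TPM, 5 with both transcripts without a gene added, and 1 to 4 without single libraries. Between the guides (0) they were 1 without a filter and 0 to 4 without single libraries. N-glycan genes outside the set called with TRAM2-KO1 (14) were 2 with length offsets, 3 with limma on TPM and 9 with protein-coding transcripts only, and 9 to 17 without single libraries. With TRAM2-KO2 (12) they were 4 and 0 with the first pair, and 7 to 15. Magnesium genes called (0) reached 3 with TRAM2-KO1 and 2 with TRAM2-KO2 over all settings. For N-glycan genes between the guides (1) they were 0 with length offsets, limma on TPM or the 2 groups alone, and 0 to 7. DDOST turned to -0.23 and -0.19 with its added transcript, an alternative chosen after seeing the data. The cause of these changes was not tested, and the share of all genes called was counted for the fit reported alone. Libraries of the same letter correlated between -0.09 and 0.11 in their deviations over all genes. A correlation over all genes cannot show whether they share a batch that acts on some genes, and this was not tested. The replicate block left 1, 4 and 0 members and 15, 12 and 1 N-glycan genes called. Estimated counts cannot show how reads were split between transcripts, and 3 libraries per group limit calls of small differences.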
